A study of Mus musculus with 6 samples.

Results

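The *Hox* genes encode homeodomain transcription factors and lie in clusters on 4 chromosomes. They are sorted into 13 paralog groups by similarity and by position in the cluster, and the lower groups are expressed further forward along the body axis than the higher ones. In the hindbrain this order sets the identity of segments in the embryo, and the expression of part of the family persists in neurons of the pons and medulla after birth. HOXA5, a factor of paralog group 5, is known there in precerebellar neurons, and its gene was the one inactivated in the study described here.

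All 38 *Hox* genes of a list drawn up for this purpose were looked for by name in the deposited assembly, whose table holds 34632 loci. They lay on 36 loci, because *Hoxa5* was merged with *Hoxa6* and *Hoxd3* with *Hoxd4*. RNA-Seq had been made from the brainstem of P21 mice on a mixed background, principally 129/Sv, in 6 libraries that each came from a pool of 3 brainstems. All animals, controls included, were Hoxa5 flox/flox and had been given tamoxifen from P1 to P4. The 3 *Hoxa5* cKO libraries came from pups that also carried CMV-CreERT2 (+/-), a tamoxifen-inducible Cre under a viral promoter that is active in most tissues, and the 3 *Hoxa5* control libraries came from littermates without it (CMV-CreERT2-/-). The libraries are named by genotype and a replicate number from 1 to 3, which only names them.

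The libraries held 12034613 to 13202707 fragments, of which 1454 to 1971 fell on the *Hox* loci. Levels are given as fragments, as CPM (fragments scaled to TMM-adjusted library size) or, where genes are set side by side, as FPKM, which also divides by transcript length. Genes of brainstem neurons were present in all libraries, with a level summed over 15 markers of 1300 to 1430 CPM in control and 1310 to 1530 CPM in cKO, none of them at 0. Markers of cerebellar cells were unequal between the labels. Not all of them are restricted to the cerebellum, since *Zic1*, *Zic2* and *Calb1* are also expressed in nuclei of the pons and medulla. The summed level of 8 granule neuron markers was 449 to 765 CPM in the libraries labelled control and 231 to 255 CPM in those labelled cKO, and that of 8 Purkinje cell markers was 174 to 280 CPM and 99.2 to 111 CPM. Of the granule neuron markers 7 were called lower in cKO by edgeR (*Neurod1*, *Gabra6*, *Cbln3*, *Fat2*, *Zic1*, *Zic2* and *Etv1*, with log2 fold changes from -2.0 to -0.56), and of the Purkinje cell markers 6 (*Pcp2*, *Ppp1r17*, *Calb1*, *Car8*, *Slc1a6* and *Itpka*, from -1.88 to -0.69). Of all tested loci 0.503% were called lower. The markers that were not called were *Barhl1* (-0.10) in the first list and *Casq2* (-0.24) and *Skor2* (0.08) in the second. The lists were chosen with earlier results of these data known, and their part in the *Hox* values was not tested. In bulk tissue, fewer cells of a type and less RNA per cell cannot be told apart.

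Reads of 75 bases could in principle be shared between *Hox* genes, because the homeobox, the stretch that encodes the DNA-binding homeodomain, is well conserved. Reference transcripts (GENCODE vM21) of genes in different clusters were compared over 541 pairs, and 0 pairs shared an exact stretch as long as a read. Genes of the same cluster and inexact matches were not compared. The longest stretches that involve *Hoxa5* with a gene of another cluster are shown to give the scale of this likeness, first the longest of them, then the longest between *Hoxa5* and its paralog *Hoxb5*. Every letter printed was shared, and the lengths are 32 and 26 bases.
Hoxa5 and Hoxb7: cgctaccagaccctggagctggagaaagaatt
Hoxa5 and Hoxb5: actcgctaccagaccctggagctgga

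*Hox* transcripts of groups 2 to 8 were found in every library, while those of groups 10 to 13 were at or near 0. Of the 36 loci, 20 passed the filter on low counts, 6 had from 1 to 20 fragments over all libraries, and 10 had none. The highest mean FPKM values belonged to *Hoxb3* (7.12), *Hoxb5* (6.79), the *Hoxa5*-*Hoxa6* locus (6.59), *Hoxb6* (6.32) and the *Hoxd3*-*Hoxd4* locus (6.05). Their ranges over the libraries overlapped, at 5.73 to 7.80, 5.91 to 7.62, 1.68 to 15.0, 4.76 to 7.68 and 5.31 to 6.84, so their order is not set beyond the spread. Summed by cluster, the FPKM was 28.9 to 38.0 for HoxB, 10.5 to 27.6 for HoxA, 8.75 to 11.9 for HoxD and 6.67 to 9.50 for HoxC.

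**Figure D1:**
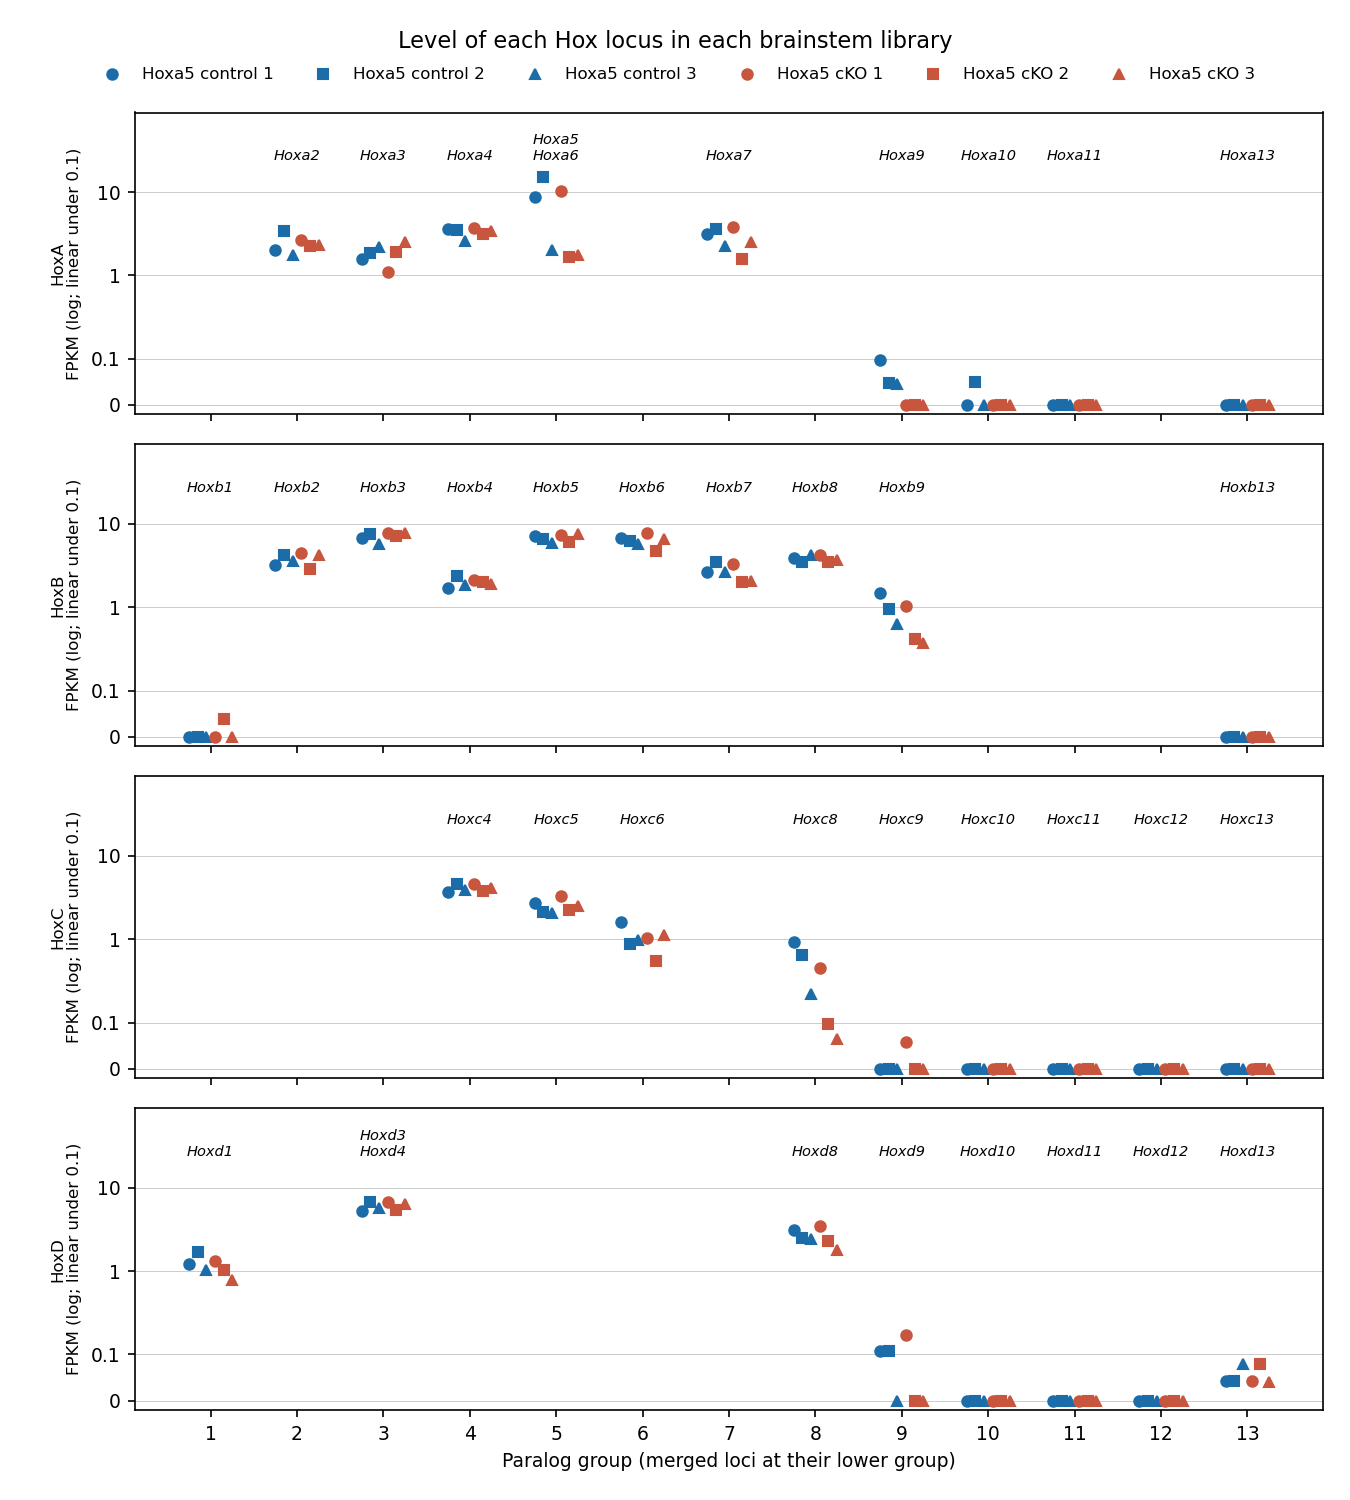
Level of each *Hox* locus (y axis, FPKM, logarithmic above 0.1 and linear below) by paralog group (x axis) in each cluster, where each library is a point whose color gives its labelled genotype and whose shape gives its number. Groups 2 to 8 lie mostly between 1 and 10 FPKM, HoxB holds the highest sum, and the *Hoxa5*-*Hoxa6* locus spreads from 1.68 to 15.0 FPKM.

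The most anterior group was nearly silent in HoxB and low in HoxD. *Hoxb1*, which acts in a hindbrain segment of the embryo, had 1 fragment in cKO 2 and 0 in the other libraries. *Hoxd1* had 21, 29 and 19 fragments in controls 1, 2 and 3 and 22, 19 and 14 in cKO 1, 2 and 3. The groups overlapped, with a log2 fold change (cKO over control, as for all fold changes here) of -0.32 (SE 0.30, adjusted p = 0.904 from edgeR).

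Groups 2 to 4, which pattern the hindbrain segments of the embryo, differed little between the labels. *Hoxb2* had 53, 69 and 64 fragments in control and 71, 51 and 72 in cKO. *Hoxb3* had 150, 201 and 161 and then 184, 180 and 198. *Hoxc4* had 80, 101 and 90 and then 97, 83 and 91. The labelled genotypes overlapped at each of these loci, and the log2 fold changes were 0.06 for *Hoxb2* (SE 0.18), 0.14 for *Hoxb3* (SE 0.12) and 0.00 for *Hoxc4* (SE 0.14), with adjusted p of 0.977, 0.902 and 1 from edgeR. The merged *Hoxd3*-*Hoxd4* locus, which had more fragments than any other *Hox* locus, had 339, 420 and 385 in control and 408, 361 and 402 in cKO, a log2 fold change of 0.04 (SE 0.09, adjusted p = 0.973 from edgeR). *Hoxa4*, the neighbour of *Hoxa5* on its 3′ side, had 58, 57 and 45 fragments in control and 57, 54 and 56 in cKO, a log2 fold change of 0.06 (SE 0.18, adjusted p = 0.977 from edgeR). The other loci of these groups were *Hoxa2*, *Hoxa3* and *Hoxb4*, with log2 fold changes of 0.06, -0.01 and 0.03. *Hoxb4* had 48 to 67 fragments, *Hoxa2* varied more, with 47 to 81, and *Hoxa3* the most, with 26 to 63 and a BCV of 0.156, above the median of 0.112 over the tested *Hox* loci.

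The merged locus of *Hoxa5*, the targeted gene, and *Hoxa6* did not follow the labels. It had 202, 337 and 77 fragments in controls 1, 2 and 3 and 279, 57 and 63 in cKO 1, 2 and 3. The libraries labelled control 1, control 2 and cKO 1 were high, the library labelled control 3 was low together with cKO 2 and cKO 3, and the genotypes overlapped. The mean level was 16.6 CPM for control (SD 10.8, n = 3) and 10.9 CPM for cKO (SD 10.8, n = 3), and the log2 fold change was -0.62 (SE 0.48, adjusted p = 0.893 from edgeR). Because the level of this merged locus goes against the label in 2 libraries, each direction below is that of libraries as labelled. Without cKO 1 the log2 fold change was -1.82 (SE 0.39, adjusted p = 0.0318 from edgeR) and without control 2 it was -0.05, with adjusted p from 0.0318 to 1 over all alternatives.

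Its spread was unusual for the whole table. The coefficient of biological variation (BCV, the relative spread within a genotype after counting noise is taken off) was 0.411 for the *Hoxa5*-*Hoxa6* locus, against a median of 0.069 over the 21854 tested loci, and 17 tested loci (0.0778%) had a BCV at least as high. The paralogs were steady. *Hoxb5* had 136, 125 and 121 fragments in control and 133, 124 and 149 in cKO, with a BCV of 0.0701 and a log2 fold change of 0.09 (SE 0.12, adjusted p = 0.943 from edgeR). *Hoxc5*, the other factor of group 5, had 83, 65 and 68 and then 99, 74 and 78, with a BCV of 0.102 and a log2 fold change of 0.22 (SE 0.17, adjusted p = 0.892 from edgeR). With intervals of 2 SE from -0.15 to 0.33 for *Hoxb5* and from -0.12 to 0.56 for *Hoxc5*, no difference between the labels was detectable for either paralog at this depth. The ratio of the *Hoxa5* locus to *Hoxb5* in fragments per library was 1.49, 2.70 and 0.636 in control and 2.10, 0.46 and 0.423 in cKO, so which of these was higher changed between libraries of the same label. The ratio to *Hoxa4* ran from 1.06 in cKO 2 to 5.91 in control 2.

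The locus that carries *Hoxa5* lies on the minus strand at chr6:52201754-52211868 (mm10), and holds 7 transcripts of the deposited assembly. Besides the reference forms of *Hoxa5* and *Hoxa6*, they comprise 4 assembled forms named *Hoxa5* and 1 assembled single-exon form that lies antisense to the noncoding RNA 2700086A05Rik. Of the assembled *Hoxa5* forms, 3 begin upstream and run through the *Hoxa6* region. The study's RT-qPCR primers are shown because they mark which of these forms that assay reads. Matched to the reference transcript (GENCODE vM21, GRCm38), the forward primer lies at chr6:52203793-52203811 in the coding part of exon 1, and the reverse primer at chr6:52202701-52202720 in the coding part of exon 2, in antisense orientation.
RT-qPCR forward: gcgcaagctgcacattagt
RT-qPCR reverse: ggcatgagctatttcgatcc
Both sites are present in 4 of the 7 transcripts, while the table counts all 7 together. The primers for the loxP allele had no match in the reference transcript, and the floxed interval was not located here.

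**Figure D2:**
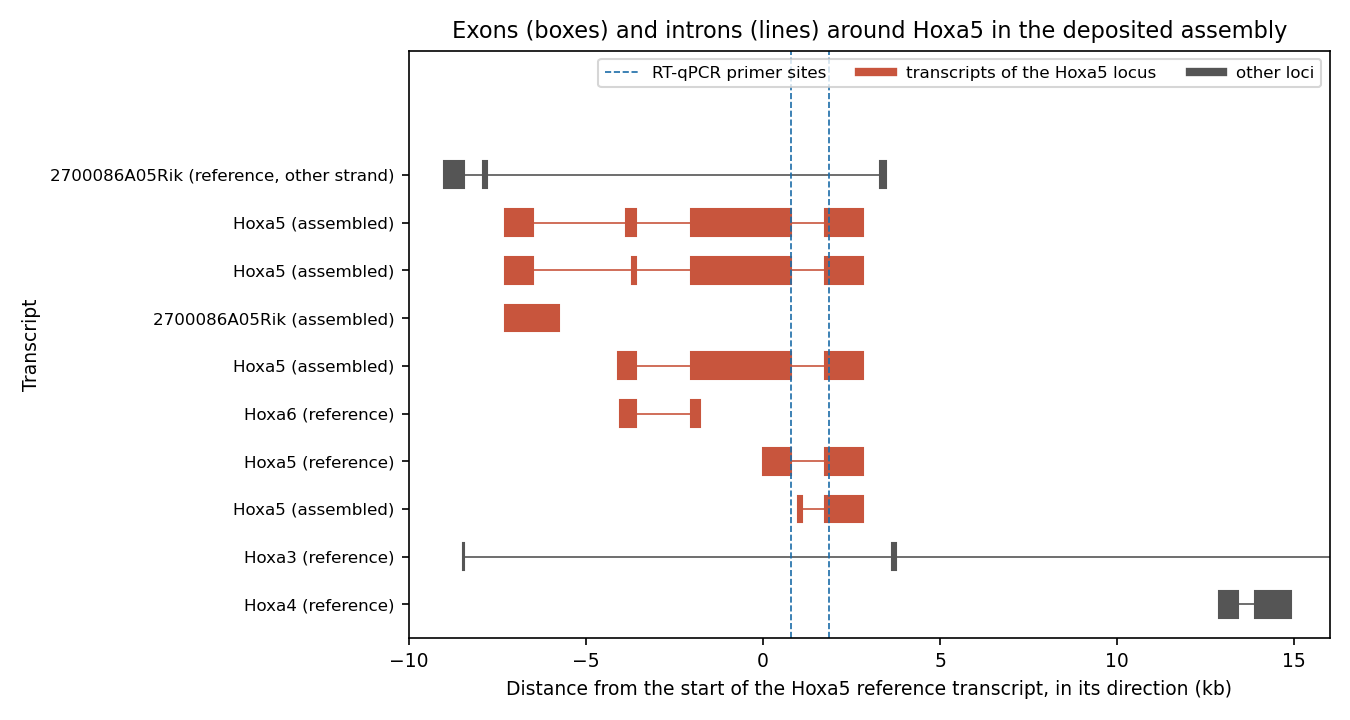
Exons (boxes) and introns (lines) of transcripts in the deposited assembly around *Hoxa5* (x axis, distance in kb from the start of its reference transcript, in its direction), with 1 row per transcript and dashed lines at the RT-qPCR primer sites. The 7 transcripts of the locus are red, both primer sites are in 4 of them, and exons of *Hoxa3* lie on both sides of the locus.

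The transcript length implied for the locus also varied between libraries. Cuffdiff divides the fragments of each transcript form by its length, so the ratio of fragments to FPKM gives a mean transcript length for a locus, here scaled on 1704 loci with a single transcript. For the *Hoxa5* locus it was 1989, 1928 and 3083 bases in controls 1, 2 and 3 and 2363, 2754 and 2961 in cKO 1, 2 and 3. The 3 libraries with the fewest fragments thus had the longest implied transcripts, with a ratio of highest to lowest of 1.6. At the 10 *Hox* loci with 1 transcript and at least 10 fragments in every library this ratio was 1.02 to 1.06, and at *Hoxb5* the length ran from 1592 to 1651 bases. Such loci have a fixed transcript length, so their ratio lies near 1 in any case and cannot serve as a comparison. Among loci with several transcripts the ratio was 1.18 at *Hoxb3* (12 transcripts), 1.06 at *Hoxd3*-*Hoxd4* (11) and 1.1 at *Hoxa2* (2). At *Hoxb8*, *Hoxc4*, *Hoxc6* and *Hoxd8*, with 2 transcripts each, it was 1.04 to 1.06. The *Hoxa7* locus, which holds 3 transcripts and few fragments, had 1060 to 1658 bases and a ratio of 1.56, so a spread of this size also occurred at another merged locus of low count. The files give no values for single transcripts.

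**Figure D3:**
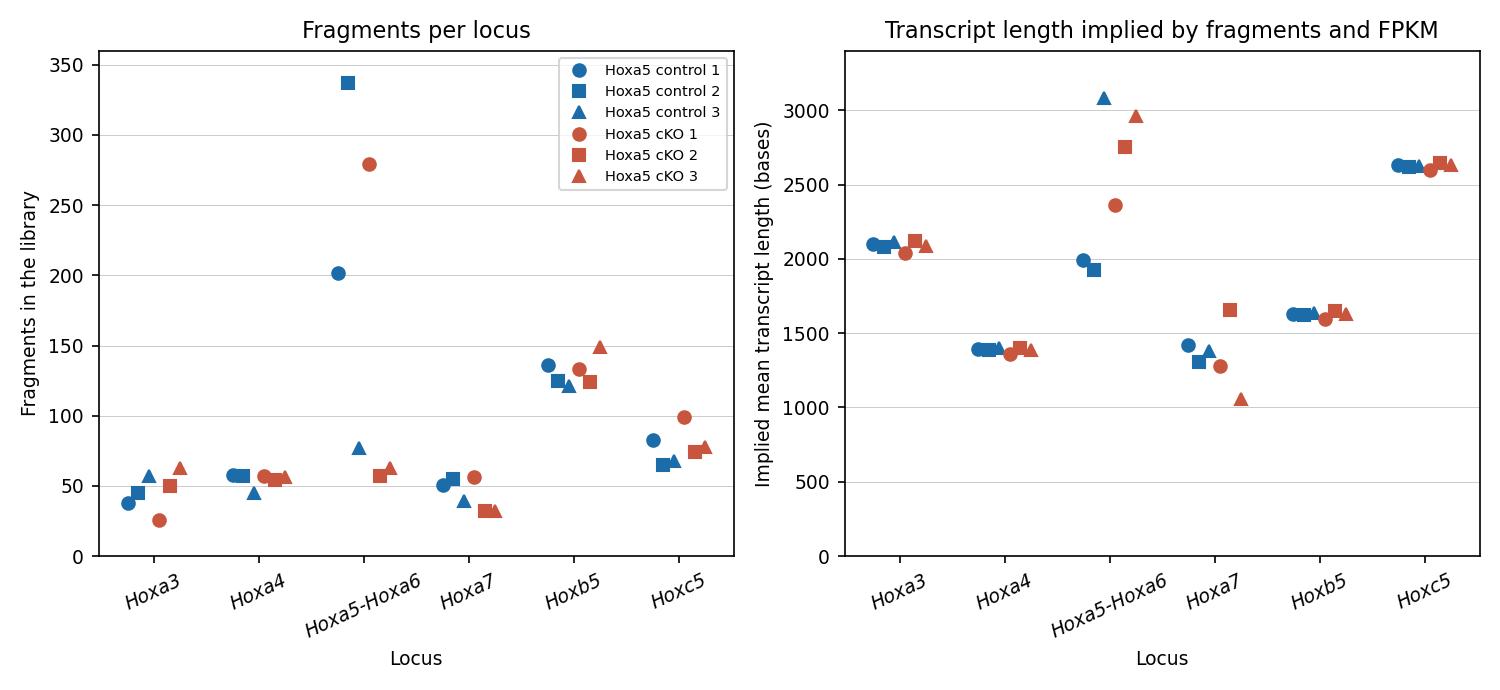
Fragments per library (left, y axis) and the transcript length in bases implied by fragments and FPKM (right, y axis) for the *Hoxa5* locus, its neighbours and its paralogs (x axis), with blue points for control, red points for cKO and a shape for each number. The *Hoxa5* locus runs from 57 to 337 fragments and from 1928 to 3083 bases, while *Hoxa4* and *Hoxb5* are flat on both axes. With 1 transcript each, the implied length of *Hoxa4* and *Hoxb5* is flat in any case.

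*Hoxa3* ran opposite to the *Hoxa5* locus about their means, except in control 2, where both were above (by 0.038 and 1.367 in log2 CPM). Its locus spans chr6:52169062-52213067 on the same strand, and its reference transcript has an exon on each side of the *Hoxa5* locus, which thus lies in an intron of it. It had 38, 45 and 57 fragments in control and 26, 50 and 63 in cKO. Its highest values were in cKO 3 and control 3 and its lowest in cKO 1, a log2 fold change of -0.01 (SE 0.24, adjusted p = 0.997 from edgeR). The ratio of the *Hoxa5* locus to *Hoxa3* was 5.32, 7.49 and 1.35 in control and 10.7, 1.14 and 1.00 in cKO. This relation was noticed after the values were seen, and with 26 to 63 fragments its counting error is large.

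Likeness to the *Hoxa5* locus was described by the root mean square (RMS) difference of centred log2 CPM over the 6 libraries, where a smaller value means a more similar profile. Among 21853 other tested loci *Hoxc8* came 5th (RMS 0.516), *Hoxb9* 13th (0.613) and *Hoxa7* 39th (0.713), while *Hoxa3* came 21190th (1.36), near the end of the order. *Hoxb5* (1.04) and *Hoxc5* (1.00) had ranks of 5599 and 2435. The named locus nearest to *Hoxa5* outside the *Hox* clusters was *Rec8*, which encodes a cohesin subunit of meiosis, with 25, 63 and 14 fragments in control and 35, 11 and 10 in cKO (RMS 0.295). It was likewise high in controls 1 and 2 and in cKO 1. The next named loci outside the *Hox* clusters were *Fcer2a*, *Mfap4*, *Lrrtm3* (2 loci), *Pcgf1*, *Hsf2bp*, *Dct*, *Lrg1* and *D630032N06Rik*, at RMS 0.493 to 0.665, and all of the 10 had under 200 fragments in the 6 libraries together. With 6 libraries this likeness is only a description. The *Fcer2a*, *Lrrtm3* and *Pcgf1* loci hold 1 transcript each, of 1063 to 1756 bases without an intron. Their names are those given by the assembly, and whether they are the transcripts of those genes was not tested.

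Groups 6 and 7, expressed from the caudal medulla downwards in the embryo, were between these extremes. *Hoxb6* had 89, 81 and 81 fragments in control and 95, 67 and 90 in cKO, a log2 fold change of 0.01 (SE 0.16, adjusted p = 0.994 from edgeR). *Hoxa7*, the next locus on the 5′ side of *Hoxa5*, had 51, 55 and 39 and then 56, 32 and 32, a log2 fold change of -0.27 (SE 0.25, adjusted p = 0.906 from edgeR). It was highest in cKO 1 and control 2 and lowest in cKO 2 and cKO 3, and the genotypes overlapped. The remaining loci, *Hoxb7* and *Hoxc6*, had log2 fold changes of -0.22 (SE 0.23) and -0.41 (SE 0.34), and *Hoxc6* had 10 to 29 fragments.

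In groups 8 and 9 some loci were steady and others not. *Hoxb8* had 83, 76 and 97 fragments in control and 89, 80 and 84 in cKO, with a BCV of 0.0683 and a log2 fold change of -0.01 (SE 0.14, adjusted p = 0.993 from edgeR). *Hoxc8* had 27, 19 and 7 and then 13, 3 and 2, with a BCV of 0.354. *Hoxb9* had 43, 28 and 20 and then 30, 13 and 11, with a BCV of 0.25. For both loci control 1 was the highest, and cKO 3 and cKO 2 were the lowest, while control 3 lay below cKO 1, so the genotypes overlapped. The log2 fold change was -1.54 for *Hoxc8* (SE 0.59, unadjusted p = 0.0177, adjusted p = 0.56 from edgeR) and -0.75 for *Hoxb9* (SE 0.38, unadjusted p = 0.0637, adjusted p = 0.763 from edgeR). *Hoxd8* had 60, 49 and 50 and then 67, 47 and 34 fragments, a log2 fold change of -0.10 (SE 0.23). HOX factors of these groups are known mainly from the spinal cord, where they set motor neuron columns.

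Posterior to this the clusters were silent. *Hoxa9* had 2, 1 and 1 fragments in the controls and 0 in each cKO library, and *Hoxd9* had 2, 2 and 0 and then 3, 0 and 0. *Hoxc9* had 1 fragment in cKO 1 only, and *Hoxa10* had 1 in control 2 only. *Hoxd13*, the end of the HoxD cluster, had 1 or 2 fragments in every library, with none at *Hoxd10*, *Hoxd11* or *Hoxd12*. These and *Hoxa11*, *Hoxa13*, *Hoxb13*, *Hoxc10*, *Hoxc11*, *Hoxc12* and *Hoxc13* are the 10 loci with 0 fragments in all libraries, which allows a level of up to 3 fragments, or 0.227 to 0.249 CPM, in each library (counting error only).

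Between the labelled genotypes, 0 of the 20 tested *Hox* loci were called by edgeR at an adjusted p under 0.05, against 0.531% of all 21854 tested loci (116 loci), with adjusted p from 0.56 to 1. By direction these were 0 lower against 0.503% of all tested loci and 0 higher against 0.0275%. *Hoxc8* alone had an unadjusted p under 0.05, 1 of 20 against 6.94% of all tested loci. DESeq2 gave 1 such locus. Limma on log2(FPKM + 1) gave 0, but *Hoxc8* and *Hoxb9* did not pass its filter on FPKM, so it could not find them. In 0 of 20 did the groups part completely, against 12.2% of all tested loci. Of the log2 fold changes 10 lay below 0 and 10 above, 14 were within 0.25 of 0, and their range was -1.54 to 0.22 beside a median of 0.00341 for all tested loci. The other 16 members, on 16 loci, did not pass the filter and were not tested.

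**Figure D4:**
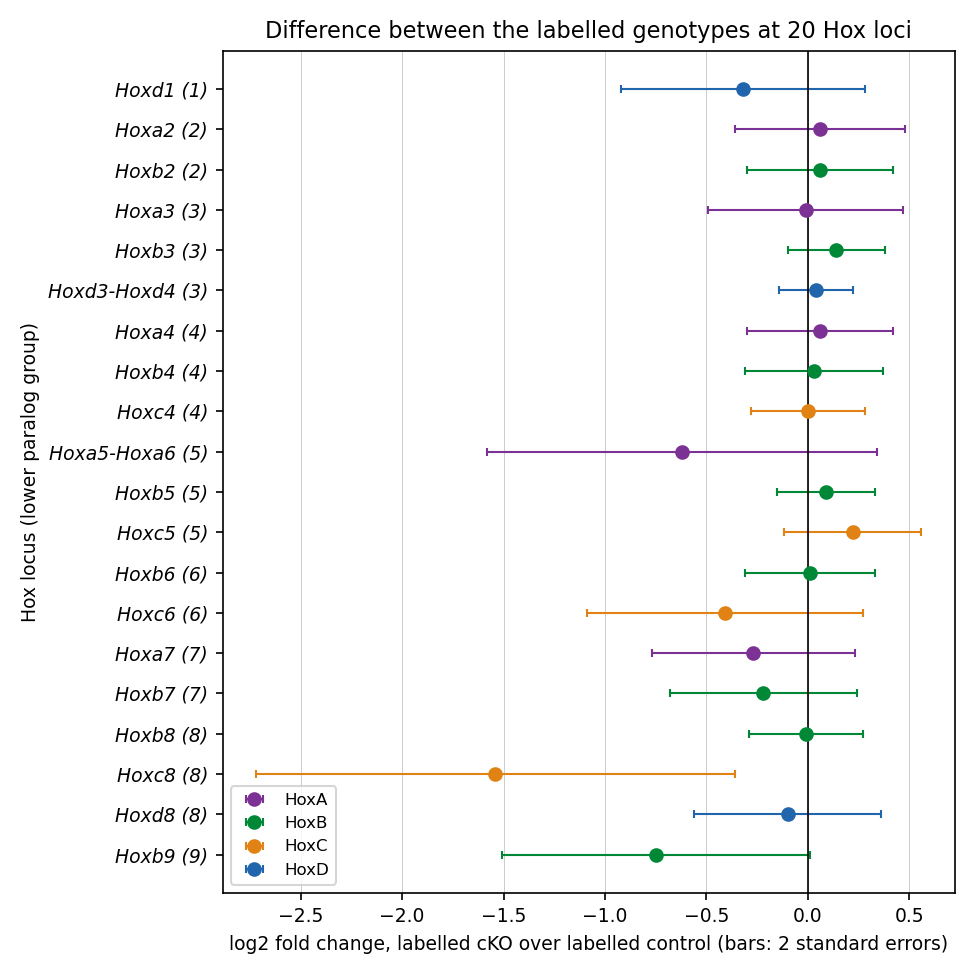
log2 fold change of labelled cKO over labelled control (x axis) for the 20 tested *Hox* loci (y axis, with the lower paralog group in brackets), with bars of 2 standard errors and color for the cluster. The bars of 19 loci cross 0, and that of *Hoxc8* runs from -2.71 to -0.37.

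Control 3 and cKO 1 are the 2 libraries in which the level of the *Hoxa5* locus goes against the label. With both left out, the log2 fold change was -3.21 for *Hoxc8* and -1.62 for *Hoxb9*. These values are only a description, and the test made on these libraries supports nothing. The libraries were chosen by the *Hoxa5* locus after the data were seen. *Hoxc8* and *Hoxb9* rank the libraries much as that locus does, so that the choice fixes the direction.

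The spread between libraries was wider in the higher groups. Each tested locus was centred on its own mean log2 CPM, and the range over the 6 libraries had a median of 0.47 for the 9 loci of groups 1 to 4, 0.73 for the 7 loci of groups 5 to 7 and 1.43 for the 4 loci of groups 8 and 9. Within the last, *Hoxb8* kept a range of 0.27. For groups 8 and 9 the median deviation was 0.62, 0.18 and -0.13 in controls 1, 2 and 3 and 0.48, -0.43 and -0.72 in cKO 1, 2 and 3. For groups 1 to 4 it was -0.19, 0.19 and -0.09 and then 0.15, -0.11 and 0.05, so that control 1 was below the mean for the anterior groups and above it for the posterior ones. All 9 loci of groups 1 to 4 were above their mean in control 2, and 8 of 9 in cKO 1. Over all 20 loci, control 2 was the highest library at 8 and cKO 1 at 7, while cKO 2 was the lowest at 9, control 3 at 5 and cKO 3 at 4. The loci of higher groups also had fewer fragments, and the part of counting error in these ranges was not tested, although the BCV values of *Hoxc8* and *Hoxb9* above have it taken off.

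**Figure D5:**
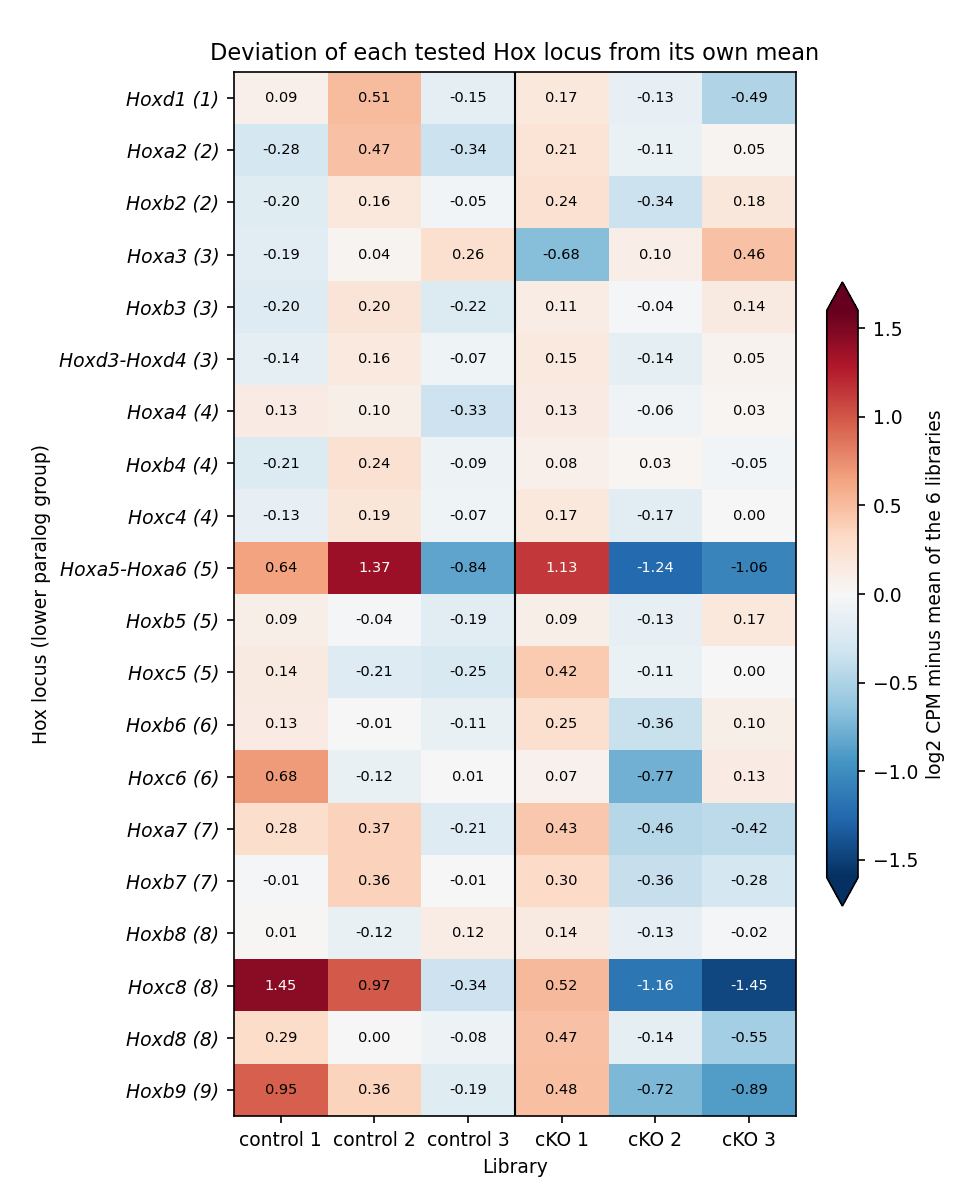
Deviation of log2 CPM from the mean of the 6 libraries (color and printed value) for the 20 tested *Hox* loci (rows, with the lower paralog group in brackets) in each library (columns). The *Hoxa5*-*Hoxa6*, *Hoxc8* and *Hoxb9* loci have the strongest colors, with control 1, control 2 and cKO 1 above and the other 3 libraries below their mean.

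Between the *Hox* loci, the cluster spans held 16 other loci, of which 8 were at 0. The microRNAs are shown by their mature sequences (RefSeq, GRCm38.p6), with the seed, bases 2 to 8, in capitals, because miR-10 and miR-196 are families with a shared seed in different clusters, while the seed of miR-615 is its own.
miR-10a-5p: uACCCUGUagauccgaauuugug
miR-10b-5p: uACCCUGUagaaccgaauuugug
miR-196a-5p: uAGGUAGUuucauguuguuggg
miR-196b-5p: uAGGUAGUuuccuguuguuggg
miR-615-3p: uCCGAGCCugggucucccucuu
The loci of *Mir10a*, *Mir196a-1*, *Mir196a-2*, *Mir196b* and *Mir615* had 0 fragments in all libraries, and *Mir10b* was merged into the *Hoxd3*-*Hoxd4* locus, so these libraries say nothing on mature microRNAs. *Hotair* and *Hoxa11as* were also at 0, and 7 RNAs of the list, among them *Hotairm1* and *Hottip*, were not found by name. The separate locus of 2700086A05Rik on the plus strand had 15 fragments in all 6 libraries. Loci antisense to the direction of their cluster were found in HoxA, HoxC and HoxD. Unnamed minus-strand loci had 66 fragments in all in HoxC and 50 and 146 in HoxD, and the pair of them that was tested had log2 fold changes of 0.00 (SE 0.37) and 0.04 (SE 0.25). Other unnamed loci had 40 fragments in HoxA and 45 and 31 in HoxB. A plus-strand locus that carries the name *Hoxa2* had 54, 73 and 61 fragments in control and 63, 69 and 57 in cKO (log2 fold change 0.01, SE 0.17). That is slightly more than the sense locus, with a mean of 62.8 against 60.3, and the sense locus was used for *Hoxa2* above (47, 81 and 49 and then 66, 57 and 62 fragments). An antisense locus named *Hoxa3* had 21 to 35 fragments. Whether the counting used strand is not given in the sources used here, and overlapping sense and antisense loci are uncertain for that reason.

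Genes that act with or upstream of *Hox* genes were described by lists, in which 0 calls are to be read against the 0.531% of all tested loci that were called. Of 9 genes for the cofactors of the PBX, MEIS and PKNOX families, which bind DNA together with HOX proteins, all were tested and 0 were called. The smallest p belonged to *Meis2*, with 68.9 ± 1.20 CPM in the controls and 77.9 ± 1.6 CPM in cKO (SD, n = 3), with a log2 fold change of 0.18 (SE 0.05, adjusted p = 0.252 from edgeR), and to *Meis3* (log2 fold change 0.11, SE 0.08). Of 15 tested genes that make, degrade or sense retinoic acid, an inducer of anterior *Hox* genes, 0 were called, with a median log2 fold change of 0.01 and the smallest p at *Rxra* (0.13, SE 0.07) and *Rxrg* (0.32, SE 0.23). Of 23 tested loci of the Polycomb and Trithorax groups, which keep *Hox* clusters repressed or active, 0 were called and 18 lay below 0 (median -0.05), with the smallest p at *Pcgf2* (-0.24, SE 0.11) and *Kmt2c* (-0.09, SE 0.04). Of 7 tested early hindbrain and axial regulators 0 were called and 0 lay below 0 (median 0.11), with the smallest p at *Tshz2* (0.11, SE 0.06) and *Gbx2* (0.46, SE 0.28). *Cdx1* and *Cdx2*, activators of posterior *Hox* genes in the embryo, were at 0 in all libraries. Of 9 tested genes that flank the clusters 0 were called, with a median of 0.01 and the smallest p at *Lnpk* (0.07, SE 0.05) and *Cbx1* (-0.10, SE 0.07).

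Markers of other tissue next to the brainstem were read over the same libraries. Of 6 tested midbrain markers 1 was called, *En2*, at 15.4 ± 3.07 CPM in the controls and 7.35 ± 1.69 CPM in cKO (SD, n = 3), with a log2 fold change of -1.06 (SE 0.16, adjusted p = 0.00338 from edgeR). *En2* is also expressed in the cerebellum. The median log2 fold change of the 6 midbrain markers was 0.05, with 3 below 0, and of all tested loci 0.503% were called lower. The summed level of the midbrain markers was 45.2 to 59.9 CPM in the controls and 34.9, 69.7 and 34.0 CPM in cKO 1, 2 and 3, and the high value of cKO 2 came from *Slc6a3*, the dopamine transporter of midbrain neurons, at 37.1 CPM there. Without *Slc6a3* the sum was 36.0, 34.5 and 32.1 CPM in control and 22.8, 32.6 and 25.3 CPM in cKO. That sum still includes *En2*, at 18.8, 14.6 and 12.8 CPM in control and 6.59, 9.29 and 6.16 CPM in cKO. The tested midbrain markers besides *En2* (*Otx2*, *En1*, *Dmbx1*, *Slc6a3* and *Barhl1*) had log2 fold changes from -0.10 to 0.31 and were not called. Of the 8 meningeal and mesenchymal markers 1 was called higher, *Mgp* (log2 fold change 0.63, SE 0.13, adjusted p = 0.0419 from edgeR), against 0.0275% of all tested loci. The list as a whole did not rise, with a median log2 fold change of -0.13 and 5 of 8 below 0. Its summed level was 257, 433 and 266 CPM in controls 1, 2 and 3 and 255 to 310 CPM in cKO. In control 2 *Col1a1* was at 101 CPM and *Col1a2* at 139 CPM, against 27.9 to 33.0 CPM and 62.2 to 78.3 CPM in the other libraries. Of 13 tested brainstem neuron, 7 choroid plexus, 5 forebrain and 1 skeletal muscle markers 0 were called, against 0.531% of all tested loci. For the brainstem neuron markers the median log2 fold change was 0.15 and 0 of 13 lay below 0. The smallest p belonged to *Dbh* (0.46, SE 0.14, adjusted p = 0.297 from edgeR), the enzyme that makes noradrenaline, and to *Isl1* (0.83, SE 0.34). At both genes the 3 cKO libraries all lay above the controls, and the groups parted completely at 12.2% of all tested loci. The choroid plexus markers had a median of 0.16 with 1 of 7 below 0, and the smallest p at *Ttr* (0.37, SE 0.10, adjusted p = 0.145 from edgeR), the thyroxine carrier of the choroid plexus, and *Sostdc1* (0.24, SE 0.19). The forebrain markers had a median of 0.21 with 1 of 5 below 0, and the smallest p at *Drd1a* (0.44, SE 0.26) and *Neurod6* (-0.19, SE 0.20). The skeletal muscle marker was *Acta1* (0.06, SE 0.34). The summed choroid plexus level was 412 to 566 CPM in the controls and 523 to 670 CPM in the cKO libraries. Most of that sum was *Ttr* alone, at 368, 508 and 431 CPM in control and 604, 472 and 611 CPM in cKO. The summed level of forebrain markers was 9.53 to 11.5 CPM and 9.85 to 12.9 CPM, and that of skeletal muscle markers 2.19 to 3.67 CPM and 2.76 to 2.92 CPM. The part of these tissues in the *Hox* values was not tested.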

How the data were processed

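RNA of 6 pooled brainstem libraries was read. Per the labels and the study's methods, the authors called bases with CASAVA 1.6, aligned reads with TopHat2 2.0.9 to mm10, merged transcripts with Cufflinks 2.2.0 and counted with Cuffdiff. The deposited table gives whole fragment counts and FPKM per locus, the FPKM scaled between libraries by the authors. Its 2 columns of scaled fragments were not used.

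Counts were normalized by TMM, filtered with filterByExpr and compared with edgeR 4.0.16 (quasi-likelihood test, R 4.3.3) over 21854 loci, with a common BCV of 0.0552. Benjamini-Hochberg adjusted p under 0.05 was called, and SE is the log2 fold change over the root of F. Log2 CPM used a prior count of 2. Implied lengths were scaled on loci with 1 transcript of over 1500 bases with over 200 fragments in every library. The replicates were separate pools of animals. The pipeline was tested on simulated data.

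Genes given in full are the *Hoxa5* locus, its paralogs and neighbours, the highest locus by FPKM of each group, loci with an unadjusted p under 0.05, the called genes or the 2 with the smallest p of each other list, and the 10 named loci outside the *Hox* clusters most like *Hoxa5*. Others were named to account for every member. One sequence is not reported here. Members and lists were chosen with earlier results of these data known.

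Alternatives were DESeq2 1.42.0, limma 3.58.1 on log2(FPKM + 1) and log2(FPKM + 0.1), library size or upper-quartile factors, no filter or at least 50 fragments in 3 libraries, the replicate number as a block, the locus with the most fragments for *Hoxa2*, and each library left out.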

Additional observations from a re-analysis of the deposited data

How the results depend on the processing

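Over 15 alternative settings, the number of *Hox* loci called stayed at 0 except in 2. It was 1 without cKO 1, the *Hoxa5* locus (log2 fold change -1.82, adjusted p = 0.0318 from edgeR), and 2 with control 3 and cKO 1 left out together, *Hoxc8* and *Hoxb9*, all lower in cKO. The latter pair of libraries was chosen by *Hoxa5*, which these loci resemble, so that count supports nothing. No value is given for the *Hoxa5* locus itself with that pair left out. With each library left out in turn, the log2 fold change of the *Hoxa5* locus ran from -1.82 to -0.05, and the number of *Hox* loci called from 0 to 1. The smallest adjusted p of a *Hox* locus other than *Hoxa5*, over the planned settings, was 0.0746. The number of loci called over the whole table was 116 and changed to 221 with no filter, 76 with at least 50 fragments in 3 libraries, 0 by limma on log2(FPKM + 1) and 1 on log2(FPKM + 0.1), and 44 to 126 with each library left out, the lowest without control 1 and then without cKO 3 (65). The cause of these changes was not tested. Among *Hox* loci an unadjusted p under 0.05 was found in 0 to 4, the most without cKO 1 and with both libraries left out. *Hoxc8* and *Hoxb9* did not pass the filters of limma or of at least 50 fragments in 3 libraries, so those settings could not find them. With the replicate number as a block, 130 loci were called in all and no *Hox* locus, with a log2 fold change of -0.69 for the *Hoxa5* locus. Deviations of same-numbered libraries correlated at 0.03, -0.08 and 0.05, which shows no pairing by number but cannot exclude one. Whether pools of the same number shared litters is not given in the sources used here. For *Hox* loci other than *Hoxa5*, 258 of 258 values under the planned settings stayed on the same side of the threshold, and 29 changed sign, all of them uncalled. *Hoxc8* had under 30 fragments in each library, and the part of depth in its spread was not tested.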
